A study of Mus musculus with 10 samples.

Results

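Germ-cell and meiotic genes that promoter DNA methylation usually keeps silent outside the germline were followed in mouse embryonic stem cells. The set was given by name as 10 genes: Dazl, Ddx4, Mael, Sycp1, Sycp3, Stk31, Hormad1, Stra8, Rec8 and Tex101. All 10 symbols matched 1 identifier each among the 52636 Ensembl gene identifiers of the count tables. Both groups were cells of the E14 mouse line, labelled as of blastocyst origin. Before treatment the cells grew on gelatin in serum medium with LIF and inhibitors of MEK and GSK (the 2i pair). They were then replated without LIF and the inhibitors and given retinoic acid (RA) at a labelled 2 µM for 24 h. The genotype label was WT or CBE-KO, the second for cells without a CTCF binding element (CBE), a DNA site bound by the chromatin protein CTCF, whose neighbouring enhancers the study linked to the HoxA genes. There were 2 RNA-seq libraries per group. The series text calls replicates biological, and the labels do not say how many CBE-KO clones were used. Contacts were also mapped by Capture-C (3 samples per group), which was not analysed here.

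Germline genes of this kind carry CpG-rich promoters that are methylated as the embryo implants and are bound by repressors in pluripotent cells, among them the PRC1.6 complex with its DNA-binding subunits E2F6 and MGA-MAX. In germ cells the promoters lose methylation and the genes are switched on. Stra8 and Rec8 are in addition induced by RA when germ cells enter meiosis. DNA methylation was not measured in the samples used here, so the name of the class is background and not a result.

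The promoters show which sequence features the genes share. Sequences are from RefSeq on the GRCm38.p6 assembly. The 250 bases upstream of each of the 12 listed start sites of the 10 genes were compared with the same stretch of 32851 start sites. The median was 18.5 CpG dinucleotides for the germline genes and 6 for all start sites. The ratio of observed to expected CpG had a median of 0.69 for the germline genes and 0.37 for all start sites. Ddx4 was the richest, with 31 CpG and a ratio of 1.00. Stra8 stood apart with 5 CpG and a ratio of 0.27, below the median of all start sites. Rec8 came next with 10 CpG and a ratio of 0.51.

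The 4 stretches printed here lie outside every annotated gene span and show a gene that rose strongly (Dazl), a gene that rose less (Mael), and a gene with an E-box (Sycp1) and a gene with none (Tex101) that did not pass the test described further on. They are written 5′ to 3′ on the gene's strand, with each CpG in capitals. Dazl is chr17:50293621-50293870 (minus strand), Mael chr1:166238745-166238994 (minus), Sycp1 chr3:102936101-102936350 (minus) and Tex101 chr7:24672051-24672300 (minus).
Dazl: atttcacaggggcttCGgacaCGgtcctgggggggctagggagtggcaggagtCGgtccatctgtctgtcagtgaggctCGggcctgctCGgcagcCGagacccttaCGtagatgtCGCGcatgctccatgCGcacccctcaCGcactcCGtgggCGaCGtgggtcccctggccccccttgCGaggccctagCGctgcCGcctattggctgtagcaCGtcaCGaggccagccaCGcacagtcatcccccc
Mael: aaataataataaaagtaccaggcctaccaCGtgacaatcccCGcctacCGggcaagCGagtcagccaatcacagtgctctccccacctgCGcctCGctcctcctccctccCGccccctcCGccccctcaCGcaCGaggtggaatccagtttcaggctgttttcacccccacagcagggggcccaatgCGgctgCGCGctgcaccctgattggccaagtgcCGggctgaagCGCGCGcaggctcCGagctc
Sycp1: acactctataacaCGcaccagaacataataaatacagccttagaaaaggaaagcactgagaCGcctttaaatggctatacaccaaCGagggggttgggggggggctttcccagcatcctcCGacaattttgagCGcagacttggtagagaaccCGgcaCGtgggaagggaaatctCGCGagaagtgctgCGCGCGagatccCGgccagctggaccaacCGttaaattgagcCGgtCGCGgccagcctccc
Tex101: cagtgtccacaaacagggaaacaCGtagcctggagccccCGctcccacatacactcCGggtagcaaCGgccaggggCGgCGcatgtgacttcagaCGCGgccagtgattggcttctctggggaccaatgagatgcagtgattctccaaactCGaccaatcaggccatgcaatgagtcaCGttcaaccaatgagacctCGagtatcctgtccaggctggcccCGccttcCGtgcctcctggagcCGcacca

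Dazl has 20 CpG in its stretch, Mael 18, Sycp1 17 and Tex101 14. Short motifs were searched on both strands. CACGTG, the E-box letters that MGA-MAX binds, was present upstream of 6 of the 10 genes (Mael, Hormad1, Sycp1, Stk31, Sycp3 and Ddx4) and in 6.02% of all stretches. Since the motif holds a CpG, the share was also taken over the 12417 stretches with at least 10 CpG, where it was 9.37%. GCGGGA, the core of E2F sites, was present upstream of 5 genes (Mael, Hormad1, Sycp3, Ddx4 and Rec8), in 16.9% of all stretches and in 37.3% of those with at least 10 CpG. AGGTCA, a half-site of nuclear receptors such as those for RA, occurred 2 times upstream of Stra8 and 1 time each upstream of Hormad1 and Sycp3, and in 14% of all stretches. None of the 3 motifs contains another. Dazl and Tex101 held none of them in this window. For Stra8 and Ddx4 the whole stretch lies inside the gene's own annotated span, so their CpG values describe sequence within that span. For Rec8, Stk31 and the second start of Hormad1 the stretch reaches into the span in part. The stretches of these genes are not printed.

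**Figure D1:**
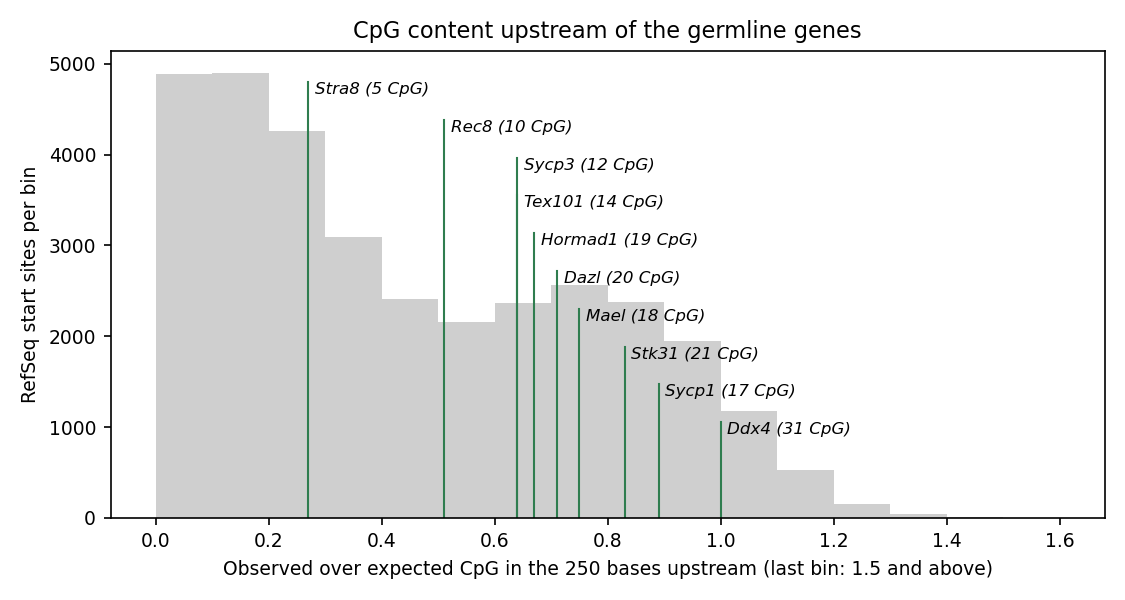
Observed over expected CpG (x axis, no unit) in the 250 bases upstream of 32851 RefSeq start sites (grey bars, start sites per bin), with a green line at the first listed start site of each germline gene and its number of CpG in brackets. Stra8 lies at 0.27 with 5 CpG, below the median of 0.37, and the other 9 genes lie between 0.51 and 1.00.

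The WT and CBE-KO libraries held 14108038 to 15632960 counts, where 3 counts, the limit below which a gene was taken as not measurable, equal 0.184 to 0.218 CPM (counts brought to one common library size, here with TMM, the trimmed-mean scaling of edgeR). The libraries differed in more than the named deletion. For the Y-linked genes, the WT libraries held 6 and 5 counts of Ddx3y where the CBE-KO libraries held 920 and 822. The same comparison was 3 and 5 against 888 and 779 for Eif2s3y, 2 and 0 against 293 and 267 for Uty, and 1 and 0 against 4 and 7 for Kdm5d. Counts of Xist were 117 and 132 (WT) and 73 and 116 (CBE-KO), and it did not pass (adjusted p = 0.0736 by edgeR), though it did without WT library 1 (0.0104) or CBE-KO library 2 (0.00175), with a replicate block (0.0165) and with no filter (0.0222). Whatever separates the groups in these Y-linked genes cannot be told apart from the deletion. Ctcf itself had a log2 fold change of -0.05 ± 0.05 (SE; adjusted p = 0.472 by edgeR), with a change of sign when libraries were scaled by totals alone. Pluripotency markers summed to 7840 to 8210 CPM over 10 genes in all 4 libraries, a sum led by Dppa5a (3550 and 3430 CPM for the WT libraries, 4200 and 4300 for the CBE-KO libraries). Of the 10, 6 fell, 3 rose and 1 did not pass, where 21.5% of all tested genes fell and 21.6% rose. The median log2 fold change of the 10 was -0.34. Utf1 fell from 782 and 728 CPM to 225 and 248 CPM (-1.67 ± 0.05, SE; adjusted p = 2.72e-13 by edgeR), and Klf4, Zfp42 and Sox2 fell by 0.49, 0.42 and 0.35 on the log2 scale. The part of this difference in the results on germline genes was not tested.

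All 10 germline genes had a countable level in every library, WT included, with 84 counts (Hormad1 in WT) as the lowest value. None of them was thus without transcripts in the bulk RNA of these cells. The share of cells that carried the transcripts was not measured, so silencing in most cells cannot be judged from these counts. All 10 entered the test. In CBE-KO, 5 rose (Dazl, Rec8, Mael, Stra8 and Stk31), none fell and 5 did not pass (edgeR quasi-likelihood test, Benjamini-Hochberg adjusted p under 0.05 over 16005 genes). Over all tested genes 43.1% passed, 21.6% as higher and 21.5% as lower in CBE-KO. The count of 5 in 10 is thus near the share of all genes that passed, and the count of 5 higher compares with 21.6%. Their median log2 fold change was 0.31, against 0.01 for all tested genes. When libraries were scaled by totals alone, 67.0% of all genes that passed were higher instead of 50.2%, the median of all genes moved to 0.11, and 6 germline genes passed as higher. In bulk RNA, more cells expressing a gene and more RNA per cell cannot be told apart.

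**Figure D2:**
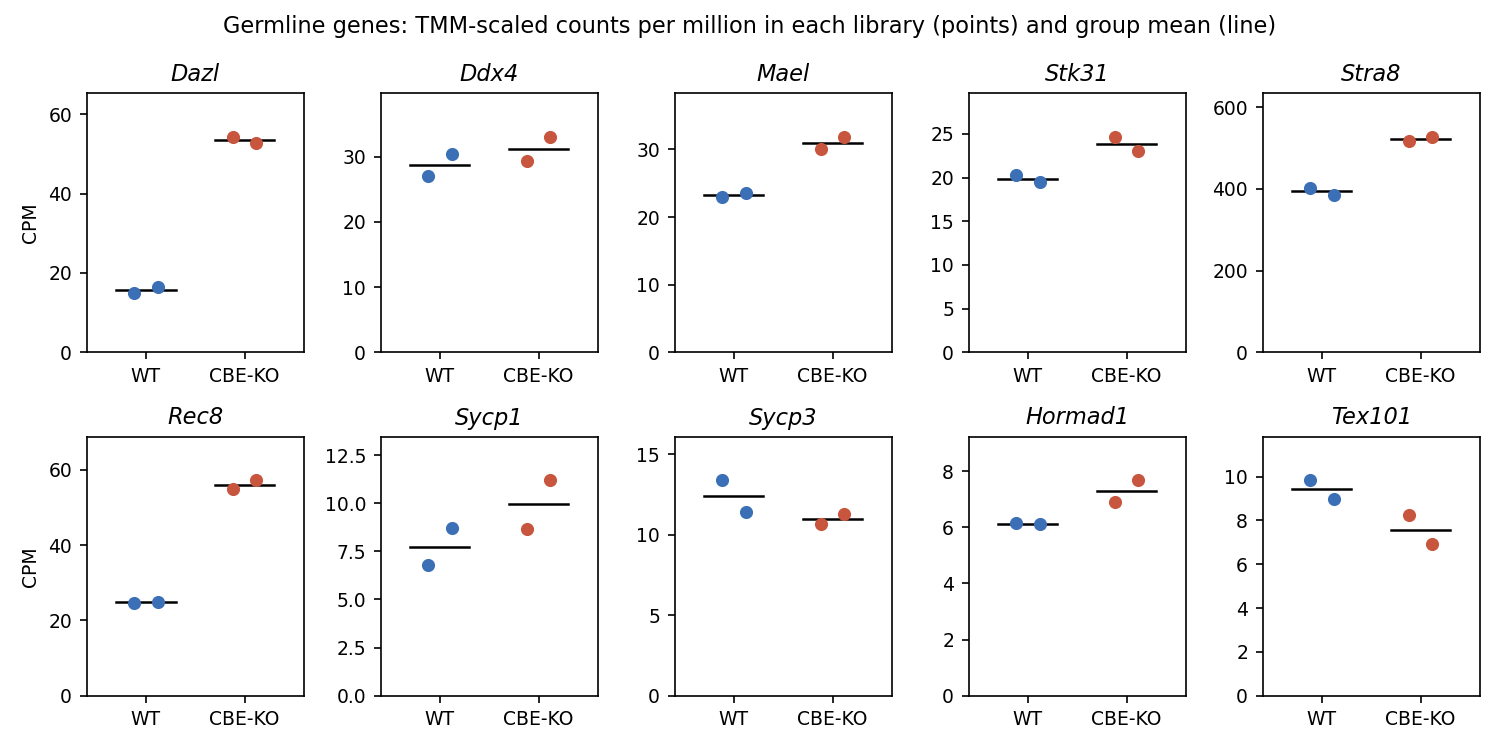
TMM-scaled CPM (y axis, from 0, a scale of its own for each gene) of the 10 germline genes in the 2 WT (blue) and 2 CBE-KO (red) libraries, with a line at each group mean. The libraries of Dazl and Rec8 lie far apart by group (15.0 and 16.5 against 54.4 and 52.8 CPM for Dazl), while those of Ddx4 and Sycp1 overlap.

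The first group of genes acts on RNA in germ cells. Dazl encodes an RNA-binding protein that controls translation in germ cells and is needed for their development. It had 15.0 and 16.5 CPM in WT and 54.4 and 52.8 CPM in CBE-KO, from 219 and 227 counts and 884 and 770 counts. Both CBE-KO libraries were high and the groups did not overlap. The means were 15.7 ± 1.07 and 53.6 ± 1.10 CPM (SD, n = 2 each), a 3.41-fold difference and a log2 fold change of 1.77 ± 0.09 (SE; adjusted p = 4.70e-11 by edgeR). Of all tested genes, 97.8% had a lower log2 fold change than Dazl.

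Mael encodes Maelstrom, a protein of the piRNA pathway that silences transposons in the male germline. It had 22.9 and 23.5 CPM in WT and 30.0 and 31.9 CPM in CBE-KO. The groups did not overlap, and the log2 fold change was 0.42 ± 0.09 (SE; adjusted p = 0.00100 by edgeR). Stk31 encodes a Tudor-domain protein with a kinase-like part that is found in testis. It had 20.3 and 19.5 CPM in WT and 24.7 and 23.0 CPM in CBE-KO, all CBE-KO values above all WT values, and a log2 fold change of 0.26 ± 0.10 (SE; adjusted p = 0.0424 by edgeR). This call lies just inside the threshold: it did not pass with median-of-ratios scaling (adjusted p = 0.0516), in DESeq2 (adjusted p = 0.242), without the filter on low counts (adjusted p = 0.0775), or without WT library 1, WT library 2 or CBE-KO library 1 (edgeR adjusted p = 0.0889, 0.182 and 0.209). Ddx4 encodes Vasa, an RNA helicase of germ granules. It had 27.1 and 30.4 CPM in WT and 29.3 and 33.1 CPM in CBE-KO. The groups overlapped and the log2 fold change, 0.12 ± 0.09 (SE; adjusted p = 0.327 by edgeR), did not pass.

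Stra8 and Rec8 belong to the entry into meiosis. Stra8, first known as a gene stimulated by RA, encodes a transcription factor that starts the meiotic programme. It had 402 and 386 CPM in WT and 517 and 528 CPM in CBE-KO, from 5311 to 8407 counts. Both CBE-KO libraries were above both WT libraries. The means were 394 ± 11.9 and 523 ± 7.88 CPM (SD, n = 2 each), a 1.33-fold difference and a log2 fold change of 0.41 ± 0.05 (SE; adjusted p = 1.81e-06 by edgeR). Rec8 encodes the meiosis-specific kleisin, the ring-closing subunit of cohesin that holds sister chromatids together. It had 24.7 and 24.8 CPM in WT and 54.9 and 57.3 CPM in CBE-KO. The WT values were nearly equal and both CBE-KO values lay far above them. The log2 fold change was 1.18 ± 0.08 (SE; adjusted p = 2.07e-09 by edgeR), a 2.26-fold difference.

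The remaining members build the chromosome axis and the synaptonemal complex, the protein zipper between paired meiotic chromosomes, or sit on the germ cell surface. Sycp1, the transverse filament of the complex, had 6.77 and 8.71 CPM in WT and 8.67 and 11.2 CPM in CBE-KO. The groups overlapped, the log2 fold change was 0.36 ± 0.18 (SE) and it did not pass (edgeR adjusted p = 0.115). Sycp1 passed with library totals alone (edgeR adjusted p = 0.0362) and without WT library 2 or CBE-KO library 1 (edgeR adjusted p = 0.0242 and 0.0427). Sycp3, a component of the axis, had 13.4 and 11.4 CPM in WT and 10.7 and 11.3 CPM in CBE-KO, close together and without overlap. It did not pass, at -0.17 ± 0.14 on the log2 scale (SE; adjusted p = 0.354 by edgeR). The annotated spans of Sycp3 and Chpt1, which lies on the opposite strand, overlap, and whether counting used strand is not given in the sources used here, so reads from the shared stretch cannot be told apart. Chpt1 had a log2 fold change of 0.27 (edgeR adjusted p = 0.0748), and passed with library totals alone (0.0140).

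Hormad1 encodes a HORMA-domain protein of the meiotic axis. It had 6.15 and 6.10 CPM in WT and 6.89 and 7.68 CPM in CBE-KO, no overlap, and a log2 fold change of 0.25 ± 0.18 (SE; adjusted p = 0.285 by edgeR). Tex101 encodes a glycoprotein anchored on the surface of germ cells and sperm. It had 9.84 and 9.0 CPM in WT and 8.24 and 6.93 CPM in CBE-KO, without overlap and lower in CBE-KO, and a log2 fold change of -0.31 ± 0.16 (SE; adjusted p = 0.143 by edgeR). Neither passed. Non-overlapping groups were found for 8 of the 10 germline genes, all but Ddx4 and Sycp1, and for 70.4% of all tested genes.

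**Figure D3:**
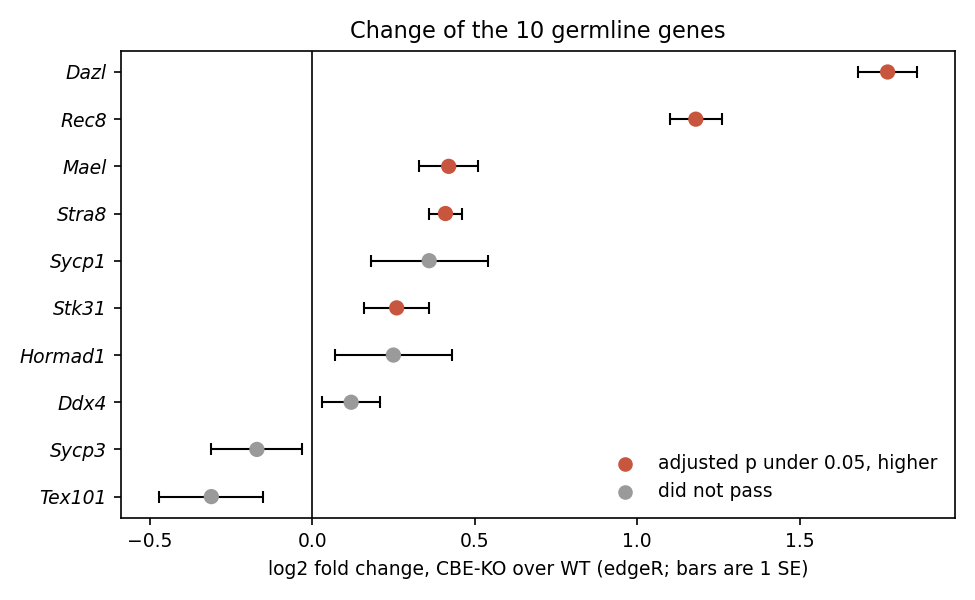
Log2 fold change of the 10 germline genes in CBE-KO over WT (x axis) with bars of 1 SE, in red where the edgeR adjusted p was under 0.05. Dazl at 1.77 and Rec8 at 1.18 stand clear of the other 8, which lie between -0.31 and 0.42.

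Ordered by log2 fold change, the members formed a pair of strong risers and a remainder with mostly small steps. The remainder ran from 0.42 ± 0.09 (Mael) to -0.31 ± 0.16 (Tex101, both SE). The step from Dazl to Rec8 was 0.59 with a combined SE of 0.11, and that from Rec8 to Mael was 0.76 with a combined SE of 0.12. From Mael down through Stra8, Sycp1, Stk31, Hormad1 and Ddx4 each step was 0.01 to 0.13, smaller than its combined SE of 0.10 to 0.21, so these neighbours in the order did not differ beyond their errors. The step from Ddx4 to Sycp3 was 0.29 with a combined SE of 0.17, and the last, to Tex101, 0.14 with a combined SE of 0.22. These steps are a description, since neighbours in a ranking were not tested against each other.

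**Figure D4:**
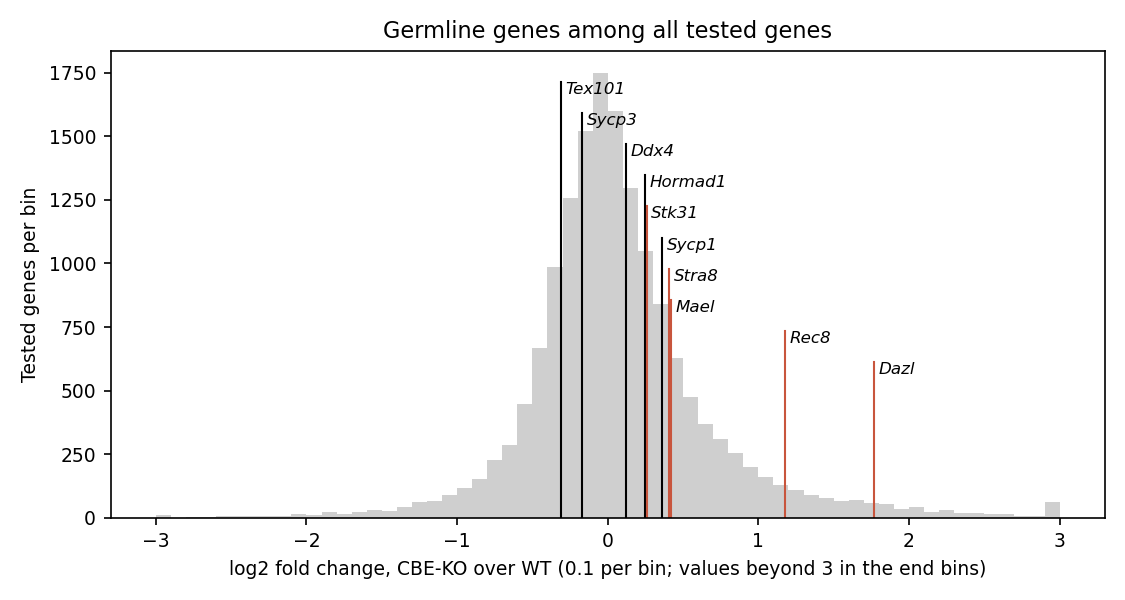
Number of tested genes (y axis) per 0.1 of log2 fold change (x axis) for all 16005 genes in grey, with a line at each germline gene, red where it passed as higher. Dazl and Rec8 lie in the right tail, above 97.8% and 94.8% of the tested genes, and the other members lie in the bulk of the distribution.

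The genome position of the members and of the genes beside them was described next. The genes lie on 8 chromosomes of GRCm38.p6: Mael on 1 (166201385-166238744), Hormad1 and Sycp1 on 3 (95559677-95587863 and 102818499-102936100), Stra8 and Stk31 on 6 (34920163-34939344 and 49395506-49469506), Tex101 on 7 (24668012-24672050), Sycp3 on 10 (88459587-88473236), Ddx4 on 13 (112598333-112652633), Rec8 on 14 (55618002-55625395) and Dazl on 17 (50279393-50293620). Chromosome 6 also holds the HoxA cluster, 2.69 Mb from Stk31 and 17.2 Mb from Stra8. The medians of log2 fold changes over the other tested genes of these chromosomes ran from -0.07 (14) to 0.12 (1), small beside the rises of Dazl and Rec8.

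The nearest protein-coding neighbours on each side, with Chpt1 as an overlapping gene, came to 21 genes. Of these 15 were tested, 5 rose, 2 fell and 8 did not pass, near the 43.1% of all tested genes that passed. Dazl was the member with both neighbours raised: Rftn1, 88.9 kb away, had 3.55 and 3.85 CPM in WT and 11.7 and 9.12 CPM in CBE-KO (log2 fold change 1.49 ± 0.19, SE; adjusted p = 8.14e-06 by edgeR). Plcl2, 215 kb away on the other side, had 3.90 and 4.36 CPM in WT and 13.5 and 12.3 CPM in CBE-KO (1.65 ± 0.17, SE; adjusted p = 5.83e-07 by edgeR). Within 1 Mb of Dazl, a window chosen after these values were seen, 6 other genes were tested. Of these 3 rose, Rftn1 and Plcl2 among them, and none fell, where 21.6% of all tested genes rose. In the same window 7 of 16 genes rose and 2 fell around Mael, and 5 of 12 rose and 2 fell around Ddx4. More fell than rose around Tex101 (2 of 55 rose, 12 fell), Sycp3 (1 of 12, 4 fell) and Stk31 (1 of 21, 3 fell). The windows of Sycp1 (4 of 15 rose, 3 fell), Hormad1 (14 of 60, 12 fell) and Stra8 (5 of 18, 3 fell) were nearly even. So was that of Rec8 (11 of 56 rose, 13 fell). Gpa33 beside Mael was the second neighbour that fell, by 0.59 on the log2 scale, and Slc38a9 beside Ddx4 rose by 0.57. The other two that rose, Ildr2 beside Mael and Gnptab beside Sycp3, were lost in DESeq2 (adjusted p = 0.240 and 0.253) and without either WT library. Rec8 differed from its neighbours. Ipo4, which ends 5 bases from it on the other strand, fell by 0.52 on the log2 scale (edgeR adjusted p = 3.38e-07), and Irf9 did not pass (log2 fold change 0.12, edgeR adjusted p = 0.595). Golph3l beside Hormad1, Fam221a beside Stk31, Mybpc1 beside Sycp3 and Lypd3 beside Tex101 did not pass. Il31ra, Tshb, Nr1h5, Npy and Ctss were too low to test. Neither neighbour of Stra8 passed (Wdr91 and Slc23a4, edgeR adjusted p = 0.475 and 0.232).

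Related genes from lists set by name, chosen with earlier results of these data known, were read in the same fit. The closest list held 38 other germline genes with methylation-dependent silencing reported in mouse cells, of which 32 were tested. Here 18 rose, 6 fell and 8 did not pass, where 21.6% of all tested genes rose and 21.5% fell. The median log2 fold change was 0.60, beside 0.01 for all tested genes. With library totals alone 18 rose and 3 fell. Sohlh2, a transcription factor of early oocytes and spermatogonia, had 17.4 and 17.2 CPM in WT and 69.6 and 67.9 CPM in CBE-KO, or a log2 fold change of 1.99 ± 0.08 (SE; adjusted p = 3.12e-12 by edgeR). Counts of Dpep3, a testis dipeptidase, went from 7 and 5 (WT) to 44 and 52 (CBE-KO), with a log2 fold change of 2.86 ± 0.40 (SE; adjusted p = 1.83e-05 by edgeR).

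Brdt, a testis bromodomain gene, and Pdha2, a testis pyruvate dehydrogenase subunit, had log2 fold changes of 1.10 and 1.09 (adjusted p = 0.000994 and 0.00335 by edgeR), with the call of Pdha2 lost without CBE-KO library 2 (0.0712). Several other genes of that list belong to families with near-identical copies, where the assignment of reads is uncertain. Xlr3a and Xlr4a, X-linked genes of a lymphocyte-regulated family, rose by log2 fold changes of 1.95 and 1.84. Tuba3a and Tuba3b, testis alpha-tubulins, rose by 1.17 and 2.09. Counts of Rhox2a, a reproductive homeobox gene, were 3 and 1 (WT) and 20 and 17 (CBE-KO). This is at least 5.67-fold higher when WT is set to the floor of 3 counts per library. Magea4 went the other way, from 5.60 and 5.52 CPM in WT to 1.29 and 1.51 CPM in CBE-KO (-1.99 ± 0.26, SE; adjusted p = 8.49e-06 by edgeR). Smc1b and Piwil2 of this list also fell and are described further on. Tex13a and Rhox5 were at 0 counts in all 4 libraries.

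**Figure D5:**
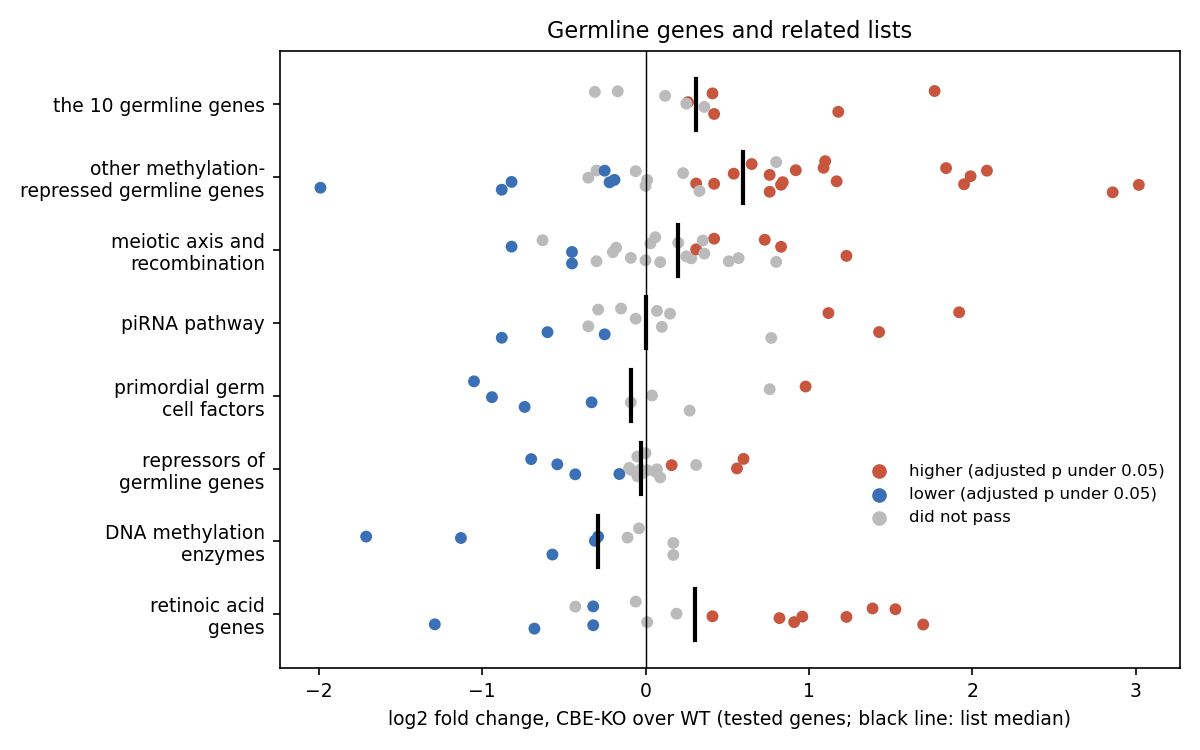
Log2 fold change in CBE-KO over WT (x axis) of each tested gene of the germline set and of 7 related lists (rows), coloured by the edgeR call, with a black line at each list's median. The medians run from -0.29 for DNA methylation enzymes to 0.60 for the other methylation-repressed germline genes, with 0.31 for the 10 germline genes.

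Genes of the meiotic axis and of recombination formed another list. Of 31 listed, 25 were tested, 5 rose, 3 fell and 17 did not pass, where 21.6% of all tested genes rose and 21.5% fell. The median log2 fold change was 0.20. Of the 31 listed, 6 also stand in the list of 38. Sycp2, an axis partner of Sycp3, had 1.78 and 1.81 CPM in WT and 4.12 and 4.32 CPM in CBE-KO (log2 fold change 1.23 ± 0.26, SE; adjusted p = 0.00103 by edgeR). Ccdc36, which helps form the breaks that start recombination, rose by a log2 fold change of 0.83 (adjusted p = 0.00686 by edgeR), a call lost without WT library 1 (0.0757). Msh5, a meiotic recombination factor, had a log2 fold change of 0.73 (edgeR adjusted p = 0.0134) that did not pass in DESeq2 (adjusted p = 0.107) or without CBE-KO library 2 (edgeR adjusted p = 0.113). Smc1b, the cohesin subunit that partners Rec8 in the meiotic ring, went down while Rec8 went up, from 10.5 and 13.0 CPM in WT to 6.52 and 6.79 CPM in CBE-KO (-0.82 ± 0.16, SE; adjusted p = 0.000591 by edgeR). Spo11, which cuts DNA to start recombination, had at most 2 counts in any library.

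Mael acts in the piRNA pathway. Of 16 other genes of that pathway 14 were tested, 3 rose, 3 fell and 8 did not pass, near the 21.6% and 21.5% of all tested genes that rose and fell, and the median was 0.00. With library totals alone 4 rose and 2 fell. Piwil1 rose from 1.30 and 0.581 CPM to 3.94 and 3.29 CPM, a log2 fold change of 1.92 ± 0.35 (SE; adjusted p = 0.000238 by edgeR). The helicase gene Tdrd9 rose by a log2 fold change of 1.43 and Gtsf1, a partner of PIWI proteins, by 1.12. Piwil2, an Argonaute of fetal germ cells, fell from 42.5 and 43.1 CPM to 23.1 and 23.5 CPM (-0.88 ± 0.08, SE; adjusted p = 1.39e-07 by edgeR). Of the factors of primordial germ cells, 9 of 11 were tested, 1 rose, 4 fell and 4 did not pass, beside the same 21.6% and 21.5%. With library totals alone 2 rose and 4 fell. Kit, the stem cell factor receptor, rose by a log2 fold change of 0.98, and Lin28a, Sall4 and Tfap2c fell by 1.05, 0.94 and 0.74 on that scale. Nanos2 was at 0 counts in all 4 libraries, and Dppa3 had 6 to 10 counts.

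Among 9 genes of the machinery that writes and erases DNA methylation, all tested, none rose, 5 fell and 4 did not pass (Dnmt1, Tet2, Tet3 and Tdg). By comparison, 21.6% of all tested genes rose and 21.5% fell. The median log2 fold change of the 9 was -0.29. With library totals alone 5 fell and Tet3 and Tdg, each at 0.17 in the fit with TMM, rose (edgeR adjusted p = 0.0137 and 0.0113). Dnmt3l, the cofactor of the de novo methyltransferases, had 527 and 533 CPM in WT and 165 and 158 CPM in CBE-KO (-1.71 ± 0.05, SE; adjusted p = 3.85e-14 by edgeR). Dnmt3b fell by 1.13 and Dnmt3a by 0.57 on the log2 scale, and Tet1, which oxidises methylcytosine, by 0.31. Dnmt1, the maintenance enzyme, had a log2 fold change of -0.11 and did not pass (edgeR adjusted p = 0.0563), though it did with median-of-ratios scaling (0.0378). Whether the methylation of any germline promoter differed between the groups was not tested.

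All 19 listed repressors of germline promoters were tested. Of these 3 rose, 4 fell and 12 did not pass, a count no higher than the 43.1% of all tested genes that passed would give, with a median of -0.03. With library totals alone 7 rose and 3 fell. Ehmt2, the H3K9 methyltransferase G9a, had 405 and 395 CPM in WT and 247 and 246 CPM in CBE-KO (-0.70 ± 0.05, SE; adjusted p = 2.86e-09 by edgeR). The PRC1.6 subunit L3mbtl2 fell by 0.54 on the log2 scale. Yaf2 and Ring1, which are shared with other PRC1 complexes, rose by log2 fold changes of 0.60 and 0.56. Pcgf6 of this list fell by 0.43 (edgeR adjusted p = 7.01e-05). The DNA-binding subunits E2f6 and Mga did not pass (edgeR adjusted p = 0.759 and 0.406), except Mga with library totals alone (0.0181). Max, the partner of Mga, had a log2 fold change of -0.16 (edgeR adjusted p = 0.0187). This call was lost in DESeq2 (adjusted p = 0.0686), with upper-quartile scaling (edgeR adjusted p = 0.055) and with library totals alone (0.386). It was also lost without CBE-KO library 1.

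Genes of RA supply, breakdown and reception were read beside Stra8. Of 19 listed, 16 were tested, 8 rose, 4 fell and 4 did not pass, where 21.6% of all tested genes rose and 21.5% fell. The median log2 fold change was 0.30. Cyp26a1, whose enzyme degrades RA, had 178 and 178 CPM in WT and 575 and 580 CPM in CBE-KO, or a log2 fold change of 1.70 ± 0.05 (SE; adjusted p = 3.57e-14 by edgeR). Stra6, a retinol transporter that like Stra8 was found as an RA-stimulated gene, had 20.8 and 25.0 CPM in WT and 59.2 and 60.4 CPM in CBE-KO (1.39 ± 0.09, SE; adjusted p = 1.09e-09 by edgeR). Aldh1a2, which makes RA, had a log2 fold change of 1.53 from 11 and 13 counts to 40 and 36. Rxrg had one of -1.29 (edgeR adjusted p = 0.0134), a call lost in DESeq2 (adjusted p = 0.109), or without WT library 2, CBE-KO library 1 or CBE-KO library 2 (edgeR adjusted p = 0.0678, 0.0740 and 0.0603). Dmrt1, a regulator of Stra8 in germ cells, did not pass (-0.06 ± 0.06, SE; adjusted p = 0.432 by edgeR), and Zglp1, a factor of the oogenic programme, was at 0 counts in all 4 libraries.

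Markers of other cells that could carry germline transcripts were read in the same libraries. Spermatid markers were near 0: Prm1 and Tnp1 had no count in any library, none of the 8 was tested, and their summed level was 0.508 to 0.752 CPM in WT and 0.274 to 0.430 CPM in CBE-KO. Gonadal somatic markers summed to 38.6 to 41.2 CPM in WT and 34.6 to 36.8 CPM in CBE-KO, with 1 of 5 tested genes, Cyp11a1, lower and none higher. Markers of 2-cell-like cells, a rare state of stem cell cultures, formed a further list. Of 11 listed, 6 were tested and all 6 rose, where 21.6% of all tested genes rose. Their median log2 fold change was 2.01. The summed level of the list was 9.51 to 10.3 CPM in WT and 33.5 to 35.4 CPM in CBE-KO. Duxf3 and Gm6763 of that list were at 0 in all libraries. The Zscan4 genes that make up most of this sum are near-identical copies, and Zscan4d was the highest. Zscan4b did not pass in DESeq2 (adjusted p = 0.0908) or without WT library 2 or CBE-KO library 1, nor Zscan4a without the latter. Fibroblast markers summed to 26.7 to 30.2 CPM in WT and 48.7 to 50.8 CPM in CBE-KO, with Pdgfrb the highest. Of 5 tested, 3 rose (Cd34, Col1a1 and Pdgfrb, by log2 fold changes of 2.59, 0.88 and 0.83) and none fell. Counts were 0 and 1 (WT) and 12 and 8 (CBE-KO) for Col1a2, and 0 and 0 against 8 and 1 for Col3a1. Postn, Dcn and Lum were at 0 in all libraries. Whether any of these cell types was present, and its part in the rises of the germline genes, was not tested.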

How the data were processed

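RNA-seq libraries of WT and CBE-KO cells (2 each) were used. Each library has 1 deposited table of raw read counts by Ensembl gene, with whole numbers throughout. HISAT2 2.1.0, HTSeq 0.9.1 and the mm10 build are named, per the submitters' processing notes, without their roles. The use of strand, the annotation release and the treatment of reads matching several genes are not given in the sources used here. Symbols came from a gene name table that matched 52403 of 52636 identifiers, and positions and promoters from RefSeq (GRCm38.p6).

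Genes were kept with filterByExpr (16005), scaled by TMM and tested with edgeR 4.0.16 in R 4.3.3 (glmQLFit and glmQLFTest, no covariate, two-sided, Benjamini-Hochberg adjustment over all tested genes, threshold 0.05). The SE of a log2 fold change is its size divided by the square root of the F statistic. CPM are TMM-scaled. Floors of 3 counts reflect counting error alone, as no molecular identifiers mark single molecules. Replicates differed by more than sampling noise, with a chi-square over its degrees of freedom of 2.67 (WT) and 2.23 (CBE-KO). P-values set the difference between groups against the spread between these libraries. The series text calls the replicates biological, but the labels do not describe separate cultures, so this spread may be technical.

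Alternatives were DESeq2 1.42.0, median-of-ratios, upper-quartile and total-count scaling, no filter, a mean of at least 1 CPM, a replicate block, thresholds of 0.01 and of an absolute log2 fold change of 1, each library left out, and robust moderation, the last chosen after seeing the data. Scripts were tested on simulated data. The members and lists were chosen with earlier results of these data known. Genes named are all 10 members, their nearest protein-coding neighbours, check genes and, from each related list, the 4 largest changes that passed (8 for other germline genes). Marker lists of other cell types are given by summed level, with genes at 0 and the highest gene named. Other genes were named after their values were seen. Of 198 other list entries, 197 matched an identifier.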

Additional observations from a re-analysis of the deposited data

How the results depend on the processing

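Dazl, Rec8, Mael and Stra8 passed as higher under all 8 other fits and all 4 fits that left out a library, with log2 fold changes of 1.70 to 1.87, 1.15 to 1.28, 0.37 to 0.52 and 0.37 to 0.51. Stk31 passed in 5 of the 8 other fits and in 1 of the 4 with a library left out (0.21 to 0.37). Ddx4, Sycp3, Hormad1 and Tex101 passed in none of these fits, and Sycp1 passed in 1 of 8 and 2 of 4. No member changed sign. The number of germline genes that passed was 4 to 6 over these fits, 4 to 5 without a library, and 4 at an adjusted p under 0.01.

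When calls also had to reach 1 on the log2 scale in either direction, 2 germline genes passed (Dazl and Rec8, as higher). Of all 16005 tested genes 1383 passed, 975 as higher and 408 as lower, so rises were the more frequent at this size. The same requirement left 10 other germline genes (9 higher), 1 meiotic gene (higher) and 3 piRNA pathway genes (3 higher). It also left 1 primordial germ cell factor (lower), 0 repressors, 2 DNA methylation enzymes (2 lower) and 5 RA genes (4 higher). DESeq2 called 4577 genes in all, against 6895 in edgeR. Leaving out a library gave 5385 to 6500 genes; a lone library was then assumed to vary like the other group.

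Both groups have replicates numbered 1 and 2 in the titles, with nothing to say that equal numbers were prepared together. Deviations of equally numbered libraries from their group mean had a correlation of 0.0346 across genes. With the replicate block 7027 genes passed, and 5 germline genes, as without it. The members with the fewest counts (Hormad1, Sycp1, Tex101 and Sycp3) had SEs of 0.14 to 0.18. Log2 fold changes of 0.36 (Sycp1) and -0.31 (Tex101) did not pass, so changes of that size could be missed at this depth.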
